A study of Mus musculus with 6 samples.

Results

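The genes described here encode the proteins of the cytosolic ribosome, the particle that translates messenger RNA. They were taken as all rows of the count table whose symbol is Rpl or Rps followed by a number (with an optional a, x or l), together with Rpsa and Rplp0 to Rplp2, leaving out symbols ending in -ps. This gave 89 of 51361 genes. In the GENCODE M21 annotation 83 of them are protein-coding, 51 of the large subunit (Rpl) and 32 of the small subunit (Rps), and the other 6 (Rpl6l, Rpl32l, Rps3a2, Rps3a3, Rps4l and Rps12l1) are annotated as pseudogenes. Of the 89, 87 passed the filter on low counts. Rpl10l, the testis copy of Rpl10, and Rps12l1 had 0 counts in every library, which allows at most 0.123 to 0.209 CPM of the raw totals, where CPM is a gene's counts scaled to a library of fixed size (floor of 3 counts, counting error only).

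The libraries came from sorted regulatory T cells (Tregs, CD4+CD25+Foxp3+ lymphocytes that restrain immune responses), at 500 to 1000 cells each, and were sequenced as bulk RNA. All mice were male, 9 weeks old, on C57BL/6N, and carried Tg(Foxp3-DTR/EGFP)23.2Spar, a transgene in which Foxp3 sequences drive a green fluorescent and diphtheria toxin receptor protein, so the controls carried it too. The groups were brain Tregs 14 days after a 60 min transient middle cerebral artery occlusion (tMCAO, a stroke model in which an artery of the brain is blocked and reopened), blood Tregs from tMCAO mice at that time, and blood Tregs from sham-operated mice, with 2 libraries each. Separate animals behind the 2 libraries of a group are not stated in the labels, and p-values here therefore reflect only the spread between these samples, which may be technical.

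Ribosomal proteins assemble with ribosomal RNA in the nucleolus into a large subunit, which joins amino acids, and a small subunit, which reads the messenger. Their messenger RNAs are among the most abundant in lymphocytes, and most begin with a pyrimidine tract at the 5′ end that places their translation under mTOR control. T cells make more ribosomes when they leave quiescence and start to divide.

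The starts of 7 of the genes are shown, of which Rpl38, Rps27, Rpl22l1, Rps27l and Rplp0 are described below. The letters are from RefSeq (GRCm38.p6), run 5′ to 3′ on the gene's strand, and cover 30 bases around the annotated start, with capitals marking CTTTCC.
Rpl38, chr11:114668565-114668594, plus strand: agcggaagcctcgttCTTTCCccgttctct
Rpl35, chr2:39005117-39005146, minus strand: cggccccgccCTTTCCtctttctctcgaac
Rps27, chr3:90213634-90213663, minus strand: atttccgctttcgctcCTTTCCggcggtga
Rpl28, chr7:4792950-4792979, plus strand: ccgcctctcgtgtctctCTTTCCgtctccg
Rpl22l1, chr3:28805493-28805522, plus strand: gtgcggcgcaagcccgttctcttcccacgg
Rps27l, chr9:66946071-66946100, plus strand: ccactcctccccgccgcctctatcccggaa
Rplp0, chr5:115559452-115559481, plus strand: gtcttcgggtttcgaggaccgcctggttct
Rpl38, Rpl35, Rps27 and Rpl28 hold the letters CTTTCC in this window, and Rpl22l1, Rps27l and Rplp0 do not. The 7 genes were picked by hand, so their share with these letters does not stand for the family. Of the ribosomal protein genes, 64 matched the RefSeq table, with 76 promoters. On the gene's strand within 30 bases around the start, CTTTCC stood in 13.2% of these promoters, against 1.42% of all 32851 promoters in the table. On either strand within 100 bases the shares were 31.6% and 8.97%. A match is a description of letters, not evidence of a site in use. Lack of CTTTCC is not lack of a pyrimidine tract: the Rpl22l1 window holds ttctcttccc, an unbroken run of c and t.

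Library totals were 19856348 and 24460894 counts in brain, against 19312572 and 16663506 in blood after tMCAO and 15216373 and 14348179 after sham surgery. T cell RNA was scarce in several libraries, against their labels, so the groups are called below by their labelled source and not as Tregs. The 17 T cell genes made up 0.0303% and 0.155% of counts in brain, against 0.0684% and 0.457% in blood after tMCAO and 0.911% and 0.883% after sham surgery. Foxp3, the defining Treg gene, had 0.726 and 19.6 CPM in brain, against 0.538 and 5.18 CPM in blood after tMCAO and 50.1 and 60.7 CPM after sham surgery. The 14 microglial markers summed to 2.09% to 2.45% in brain, against 0.315% to 0.516% in blood after tMCAO and 0.0341% to 0.0575% after sham surgery, and Sall1 was at 0 in all blood libraries. The 10 red cell genes summed to 0.00468% to 0.00804% in brain, against 0.111% to 3.84% in blood after tMCAO and 15.7% to 17.3% after sham surgery. Monocyte and macrophage markers (15) summed to 3.34% and 1.37% in brain, against 3.47% and 1.37% in blood after tMCAO and 0.737% and 0.580% after sham surgery. Platelet genes (9) summed to 0.0495% and 0.00434% in brain, against 0.185% and 0.0751% in blood after tMCAO and 0.125% and 0.176% after sham surgery. Neutrophil genes (10) summed to 0.176% and 0.0243% in brain, against 0.0299% and 0.782% in blood after tMCAO and 0.00158% and 0.00197% after sham surgery.

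Ribosomal protein genes took the smallest part of the counts in brain libraries. Together they held 2.76% and 4.19% of counts in brain, against 6.61% and 9.36% in blood after tMCAO and 7.41% and 5.78% after sham surgery. Both brain libraries stood under all 4 blood libraries, while the tMCAO blood and sham blood values overlapped. Counting error was small beside the spread between libraries: the 95% Wilson interval of the first brain library ran between 2.75% and 2.76%. With 2 libraries against 2, the smallest two-sided exact permutation p is 0.333, so these shares were not tested. When the red cell genes were left out of the totals, the shares were 2.76% and 4.19% in brain, against 6.62% and 9.74% in blood after tMCAO and 8.80% and 6.98% after sham surgery. In bulk libraries, fewer cells of a type and less RNA per cell cannot be told apart.

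**Figure D1:**
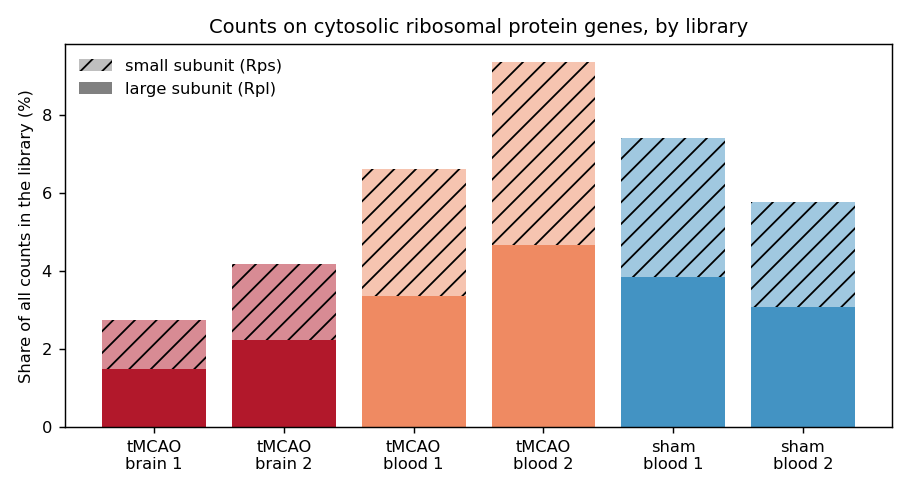
Bars give the percent of all counts in each library that fell on the ribosomal protein genes, split into small-subunit (Rps, hatched) and large-subunit (Rpl, plain) genes; brain libraries stand left, then blood after tMCAO, then blood after sham surgery. The brain bars reach 2.76% and 4.19%, under all 4 blood bars.

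Within the family the balance between the subunits moved little. Large-subunit genes made up 54.1% and 53.5% of the family's counts in brain, against 50.9% and 49.9962% in blood after tMCAO and 52.1% and 53.4% after sham surgery. The order of the 74 protein-coding members with a mean of at least 100 CPM was also much alike between libraries. Spearman's rho over these genes was between 0.833 and 0.971 for every pair of libraries, highest between the sham blood libraries; this is a description over genes of libraries made with the same kit. All gene levels in CPM use library sizes adjusted by TMM. The median level of these 74 genes was 389 and 529 CPM in brain, against 833 and 969 CPM in blood after tMCAO and 822 and 606 CPM after sham surgery. Per kilobase of transcript, Rps27, a zinc-binding protein of the small subunit, had the highest level in 5 of 6 libraries, at 2357 and 2884 CPM per kb in brain, against 4449 and 8524 CPM per kb in blood after tMCAO and 6212 and 5415 CPM per kb after sham surgery. The exception was the first tMCAO blood library, where Rps29 led at 5439 CPM per kb.

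In the tMCAO brain libraries, compared with the tMCAO blood libraries, nearly the whole family had lower values, but 1 gene passed the test. Rpl38, a large-subunit protein that in mouse is needed for translation of a set of Hox messengers, was 3.62-fold lower. The median log2 change was −1.06 over the 87 genes tested, against 0.06 over all 16657 genes tested. The change was below 0 for 84 of the 87, and above 0 for Rpl7l1, Rps3a2 and Rps4l. Both brain values lay under both tMCAO blood values for 78 genes (89.7%), where 25.9% of all tested genes did so, and above them for 1 gene, Rps4l, where 31.4% of all tested genes did so. Under the quasi-likelihood test of edgeR with Benjamini-Hochberg adjustment over all genes, 0 of 87 were higher, where 3.53% of all tested genes were, and 1 was lower, where 1.37% of all tested genes were. At an unadjusted p under 0.05 the counts were 0 higher and 58 lower, against 16.8% and 11.3% of all genes. The count of lower calls depended on the tool: the DESeq2 Wald test called 57, where it called 8.18% of all genes, limma-voom 20, where it called 2.7%, and edgeR without a filter on low counts 25, where it called 3.81%. Cell type markers moved with this comparison. Of the microglial markers 9 of 14 were called higher, and of the platelet, red cell and monocyte and macrophage genes 4 of 8, 3 of 10 and 4 of 15 were called lower. The T cell list had 0 of 17 called (0 at an unadjusted p under 0.05 in edgeR) but 16 of 17 below 0, with a median log2 change of −1.16, and its libraries overlapped for all 17. The part of these markers in the lower ribosomal protein values was not tested.

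**Figure D2:**
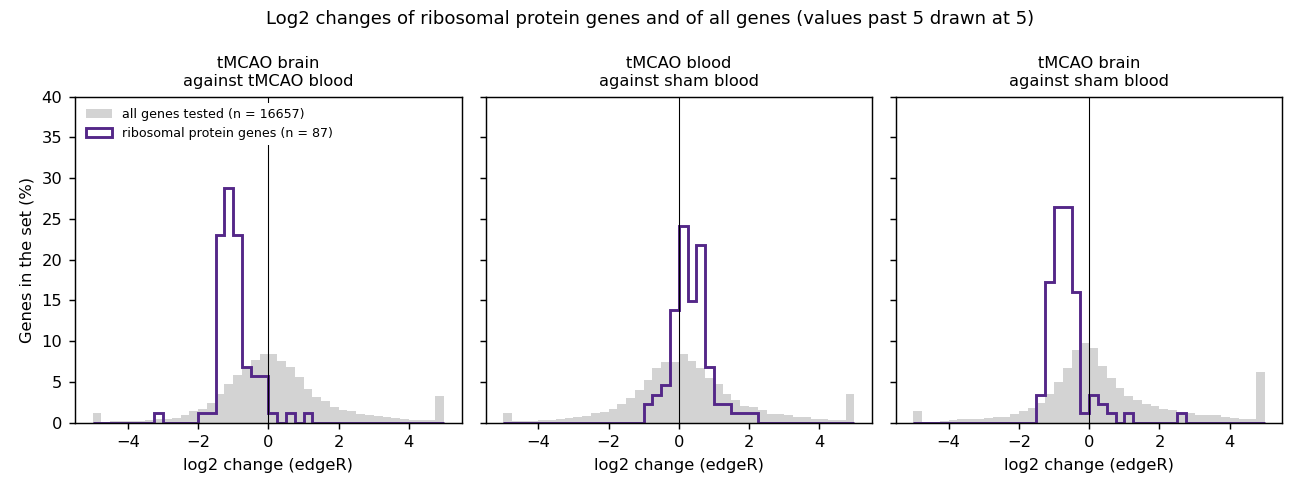
Each panel gives the distribution of edgeR log2 changes (horizontal axis) as the percent of genes per bin (vertical axis), with the 87 ribosomal protein genes as an outline and all 16657 tested genes in grey. The median of the outline is −1.06 in the left panel (brain against tMCAO blood), 0.29 in the middle (tMCAO blood against sham blood) and −0.70 in the right (brain against sham blood).

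Rpl38 (chromosome 11, 114668524 to 114672331, plus strand, GRCm38) had 163 and 210 CPM in brain, against 652 and 699 CPM in blood after tMCAO and 313 and 255 CPM after sham surgery. Both brain libraries were the lowest and both tMCAO blood libraries the highest, with sham blood between them. Brain against tMCAO blood, its log2 change was −1.86 ± 0.31 (SE; edgeR adjusted p = 0.0343). That call was lost when any 1 of the 6 libraries was left out, a fit that leaves a group with 1 sample and lowers the calls over all genes too. It was also lost when only these 4 libraries were fitted (edgeR adjusted p = 0.0957), where 0.025% of all genes were called lower. Without any 1 library, its log2 change was −1.69 to −2.05.

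Rps29, a small zinc-binding protein of the small-subunit head, had 785 and 716 CPM in brain, against 2121 and 2172 CPM in blood after tMCAO and 987 and 860 CPM after sham surgery. The tMCAO blood libraries stood apart from the other 4, and brain was 1.23-fold under sham blood in the fit. The edgeR log2 change for brain against tMCAO blood was −1.52 ± 0.33 (adjusted p = 0.0553). Rpl22l1, a paralog of Rpl22, had 21.6 and 31.9 CPM in brain, against 68.1 and 75.0 CPM in blood after tMCAO and 45.4 and 38.3 CPM after sham surgery, again with no overlap between the groups. Its edgeR log2 change for brain against tMCAO blood was −1.42 ± 0.29 (adjusted p = 0.0507). Rps26, which lines the path by which messenger leaves the small subunit, had 231 and 324 CPM in brain, against 753 and 717 CPM in blood after tMCAO and 500 and 382 CPM after sham surgery. Its log2 change was −1.40 ± 0.34 (edgeR adjusted p = 0.0654), and neither it nor Rps29 or Rpl22l1 passed the threshold.

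**Figure D3:**
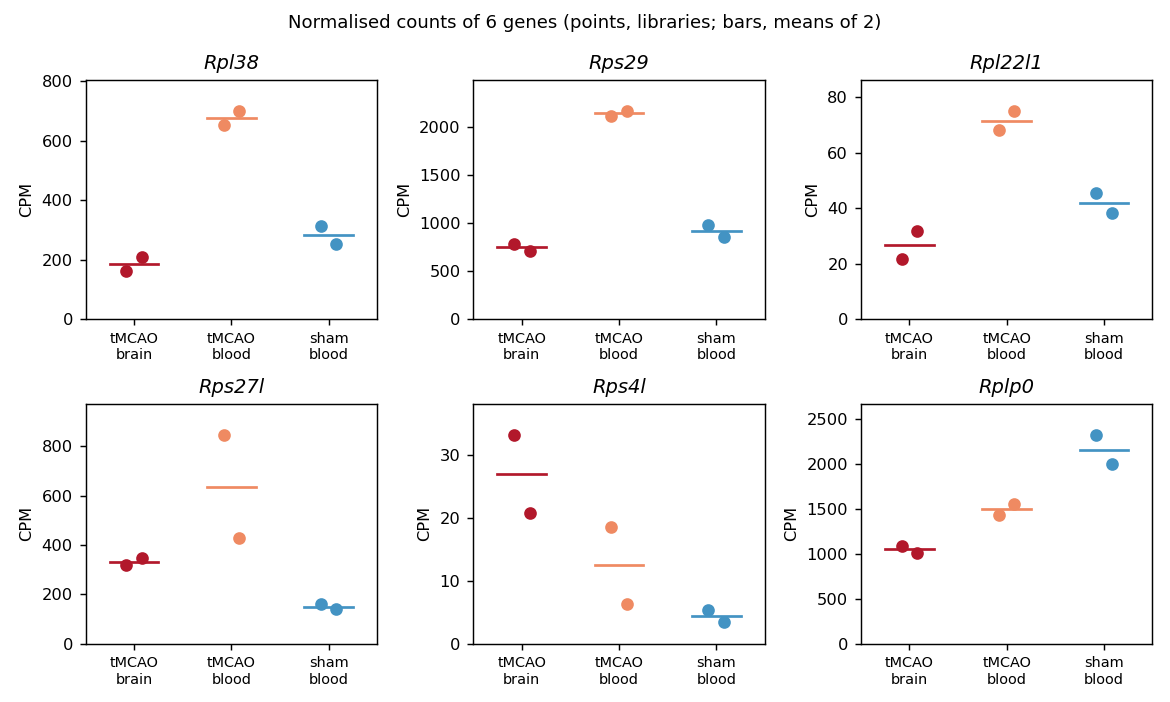
Points are TMM-scaled CPM of each library for the ribosomal protein genes named most often, with brain libraries left, blood after tMCAO next and blood after sham surgery right in each panel; each panel starts at 0 on its own linear axis. Rpl38 and Rps29 peak in the tMCAO blood libraries, at 652 and 699 CPM and at 2121 and 2172 CPM.

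In the tMCAO blood libraries, compared with the sham blood libraries, the median change of the family was small and 1 gene was called higher. Rps27l, a paralog of Rps27 whose gene is a p53 target in human and mouse cells, rose 4.23-fold. The median log2 change was 0.29 over the 87 genes, against 0.11 over all genes tested, with 66 above 0 and 21 below. Both tMCAO blood values lay above both sham blood values for 39 genes (44.8%), where 33.6% of all tested genes did so, and below them for 9 genes (10.3%), where 30.4% of all tested genes did so. By the edgeR test, 1 of 87 was higher, where 4.33% of all tested genes were, and 0 were lower, where 3.15% were. At an unadjusted p under 0.05 the counts were 8 higher and 0 lower, against 16.4% and 13.2% of all genes, and DESeq2 called 8 higher, where it called 12.4% of all genes. Cell type markers moved with this comparison too. Called higher were 4 of 15 monocyte and macrophage, 4 of 14 microglial and 1 of 8 tested neutrophil genes, and called lower were 2 microglial, 2 of 10 red cell and 4 of 8 platelet genes. All 17 T cell genes were below 0, with a median log2 change of −1.88, 0 called and 4 lower at an unadjusted p under 0.05 (edgeR). Their part in these values was not tested.

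Rps27l (chromosome 9, 66946086 to 66949516, plus strand, GRCm38) had 321 and 346 CPM in brain, against 845 and 428 CPM in blood after tMCAO and 162 and 139 CPM after sham surgery. All 4 libraries from tMCAO mice stood above both sham libraries, and the first tMCAO blood library was higher than the second by a log2 of 0.98. For tMCAO blood against sham blood its log2 change was 2.08 ± 0.41 (SE; edgeR adjusted p = 0.0408). Among the fits without 1 library, the call held only without the second tMCAO blood library. Every such fit leaves a group with 1 sample and shifts the calls over all genes too. Without a brain library, both blood groups keep 2 libraries, and the call was lost there as well. Without the first tMCAO blood library the log2 change was 1.505. For brain against sham blood the log2 change was 1.148 ± 0.40 (edgeR adjusted p = 0.113), and for brain against tMCAO blood −0.93 ± 0.40 (adjusted p = 0.187).

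Rps27l was read beside its parent Rps27, which had 813 and 995 CPM in brain, against 1535 and 2941 CPM in blood after tMCAO and 2143 and 1868 CPM after sham surgery. Rps27l counts were 39.4% and 34.8% of Rps27 counts in brain, against 55.0% and 14.6% in blood after tMCAO and 7.56% and 7.44% after sham surgery. The sham libraries were the lowest and nearly equal, and the tMCAO blood pair spread widest. Of the 75-base stretches of the Rps27 transcript 98.5% also occur in another annotated gene, so the level of Rps27 is uncertain. The part of other cell types in the ratio was not tested.

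Rpl38, Rps29 and the paralogs Rpl3l and Rpl39l had higher values in tMCAO blood than in sham blood without passing. Rpl38 changed by a log2 of 1.25 ± 0.31 (edgeR adjusted p = 0.0598) and Rps29 by 1.22 ± 0.33 (adjusted p = 0.0699). Rpl4, a core protein of the large subunit, with 936 and 1011 CPM in blood after tMCAO and 1627 and 1679 CPM after sham surgery, had a log2 change of −0.76 (edgeR adjusted p = 0.215). Rpl13, Rpl3 and Rplp0 had log2 changes of −0.55, −0.53 and −0.53 in this comparison (edgeR adjusted p of 0.307, 0.308 and 0.328).

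In the tMCAO brain libraries, compared with the sham blood libraries, most of the family had lower values and no gene passed. The median log2 change was −0.70 over the 87 genes, against 0.09 over all genes tested, with 79 below 0 and 8 above. Both brain values lay under both sham blood values for 66 genes (75.9%), where 29.7% of all tested genes did so, and above them for 3 genes, where 34.9% did so. By the edgeR test 0 of 87 were higher and 0 lower, where 8.01% and 2.62% of all tested genes were. At an unadjusted p under 0.05 the counts were 2 higher and 31 lower, against 19.7% and 10.6% of all genes, and DESeq2 called 2 higher and 35 lower, against 15.6% and 8.43% of all genes. The edgeR test called 2 higher and 4 lower without the first tMCAO blood library, against 7.82% and 3.22% of all genes, and 1 higher and 3 lower without the second, against 7.65% and 3.06%. No member was called in either direction in any fit without a brain or a sham blood library. Each of those fits leaves a compared group with 1 sample and lowers the calls over all genes too. The calls without a tMCAO blood library therefore do not show that leaving out a library in general brings out members. This comparison shares its brain libraries with the first comparison and its sham libraries with the second. Called higher were 14 of 14 microglial, 6 of 15 monocyte and macrophage and 2 of 8 tested neutrophil genes, and called lower were 9 of 10 red cell and 7 of 8 platelet genes. All 17 T cell genes lay lower in both brain libraries than in both sham libraries, with a median log2 change of −3.18, 0 called and 15 lower at an unadjusted p under 0.05 (edgeR). Their part in these values was not tested.

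The 3 genes above sham blood in both brain libraries were Rps4l, Rps27l and Rpl39l. Rps4l, annotated as a transcribed processed pseudogene of the Rps4x family, had 33.1 and 20.8 CPM in brain, against 18.6 and 6.28 CPM in blood after tMCAO and 5.39 and 3.38 CPM after sham surgery. It ran against the family, highest in brain and lowest in sham blood. Its log2 change for brain against sham blood was 2.61 ± 0.63 (edgeR adjusted p = 0.0514), short of the threshold. It passed with the replicate number as a block (edgeR adjusted p = 0.0200) and in a fit of only brain and sham blood (adjusted p = 0.0242). It also passed with raw library totals, no filter on low counts, at least 5 CPM in 2 libraries and the DESeq2 Wald test. With DESeq2 size factors, red cell genes left out before scaling, members left out of the scaling or limma-voom it did not pass. Rps4l counts were 7.56% and 2.64% of Rps4x counts in brain, against 1.81% and 0.462% in blood after tMCAO and 0.471% and 0.428% after sham surgery. Among the lower genes, Rps18 of the small-subunit head had 642 and 789 CPM in brain, against 1649 and 2034 CPM in blood after tMCAO and 1893 and 1692 CPM after sham surgery, with a log2 change of −1.32 ± 0.35 for brain against sham blood (edgeR adjusted p = 0.0621). Rpl13 and Rps19, a gene mutated in human Diamond-Blackfan anaemia, had log2 changes of −1.30 and −1.25 there (edgeR adjusted p of 0.0575 and 0.0860).

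**Figure D4:**
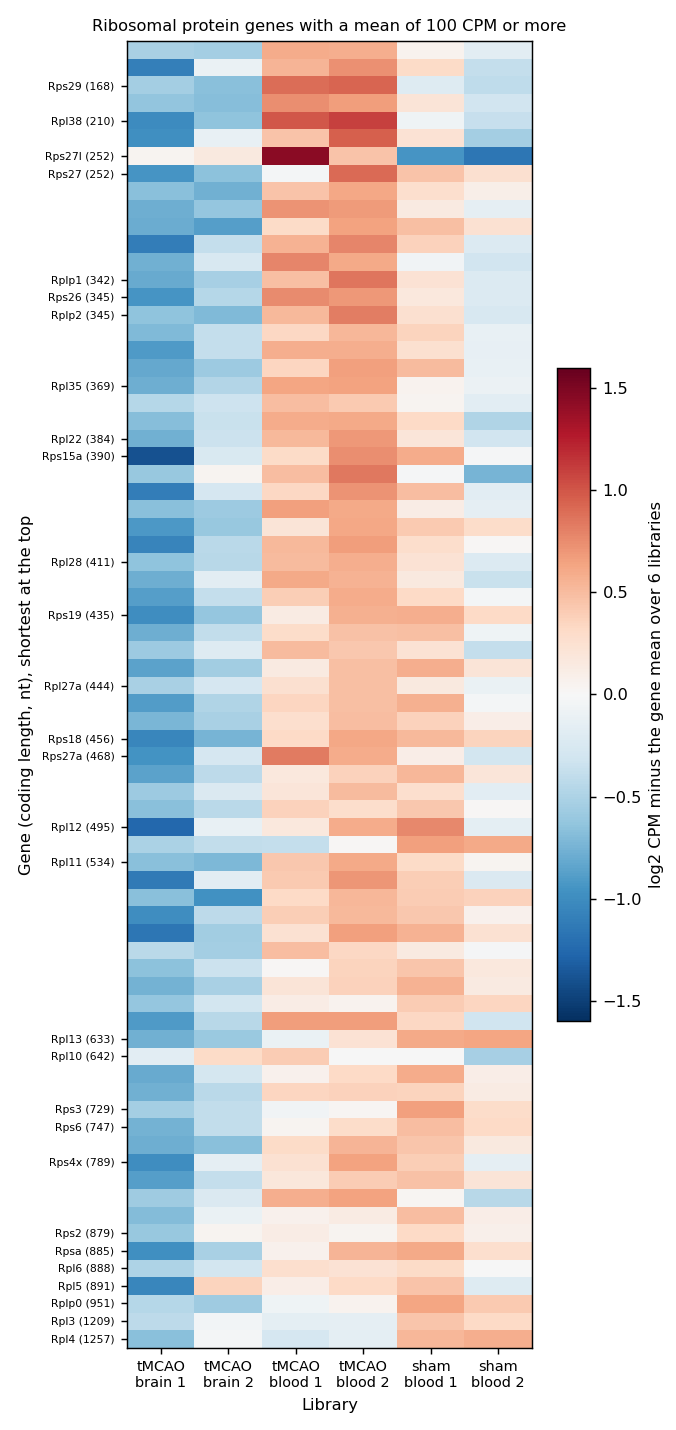
Rows are the 74 protein-coding ribosomal protein genes averaging at least 100 CPM and columns are the 6 libraries, with colour giving each gene's log2 CPM minus its own mean over the libraries; rows run from the shortest coding sequence at the top, and names with coding length in nt are given for a selection. Most rows are below their mean in the tMCAO brain columns, where the median log2 change against tMCAO blood was −1.09.

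By role, the subunits gave similar values. Large-subunit genes had a median log2 change of −1.05 when brain was compared with tMCAO blood, 0.34 between the blood groups and −0.68 when brain was compared with sham blood (50 tested), and small-subunit genes −1.10, 0.19 and −0.85 (32 tested). All 32 small-subunit genes were lower in both brain libraries than in both tMCAO blood libraries, as were 44 of 50 large-subunit genes. Of all tested genes 25.9% were. The P-stalk, the flexible arm of the large subunit that recruits elongation factors, had members with different orders of level. Its base Rplp0 had 1090 and 1012 CPM in brain, against 1433 and 1559 CPM in blood after tMCAO and 2319 and 1998 CPM after sham surgery. Its tips Rplp1 and Rplp2 were highest in tMCAO blood: Rplp1 had 542 and 654 CPM in brain, against 1319 and 1716 CPM in blood after tMCAO and 1107 and 810 CPM after sham surgery. In tMCAO blood against sham blood the log2 changes were −0.53 for Rplp0, 0.66 for Rplp1 and 0.65 for Rplp2, with edgeR adjusted p of 0.328, 0.263 and 0.248.

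Rpl5 and Rpl11 carry 5S ribosomal RNA into the large subunit and bind Mdm2, the p53 ubiquitin ligase, when ribosome assembly fails. Rpl11 had 228 and 219 CPM in brain, against 488 and 551 CPM in blood after tMCAO and 449 and 373 CPM after sham surgery, with a log2 change of −1.22 ± 0.29 for brain against tMCAO blood (edgeR adjusted p = 0.0647). Rpl5 had 238 and 627 CPM in brain, against 525 and 611 CPM in blood after tMCAO and 671 and 423 CPM after sham surgery. Its 2 brain libraries differed by a log2 of 1.40, the widest gap between libraries of that group among the 74 genes, and its groups overlapped. In the small subunit, Rps6, the substrate of S6 kinase, had 238 and 308 CPM in brain, against 416 and 494 CPM in blood after tMCAO and 566 and 505 CPM after sham surgery, with a log2 change of −0.97 ± 0.31 for brain against sham blood (edgeR adjusted p = 0.0935). Rpsa, the laminin receptor precursor, Rps3, a protein at the messenger entry of the small subunit, and Rps27a, a ubiquitin fusion, had log2 changes for brain against tMCAO blood of −1.05, −0.46 and −1.30 (edgeR adjusted p of 0.145, 0.418 and 0.0934). Rpl10, which joins the large subunit last, was among the 5 least variable members, with 733 and 1022 CPM in brain, against 1100 and 821 CPM in blood after tMCAO and 822 and 574 CPM after sham surgery. Its groups overlapped in all 3 comparisons, with log2 changes of −0.13 for brain against tMCAO blood, 0.46 between the blood groups and 0.33 for brain against sham blood.

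Of the 6 variant paralogs, Rpl3l (the striated-muscle copy of Rpl3), Rpl7l1, Rpl22l1, Rpl39l (the testis copy of Rpl39) and Rps27l were tested, and Rpl10l had no counts. Rpl22l1 counts stayed between 13.5% and 17.5% of Rpl22 counts in all 6 libraries. Rpl3l was scarce, with 1.51 and 0.123 CPM in brain, against 6.14 and 7.82 CPM in blood after tMCAO and 1.73 and 2.11 CPM after sham surgery; its log2 change for brain against tMCAO blood was −3.12 ± 1.09 (edgeR adjusted p = 0.130). Rpl7l1 had 96.9 and 69.4 CPM in brain, against 110 and 53.3 CPM in blood after tMCAO and 78.1 and 73.4 CPM after sham surgery, with overlapping groups. Over the 6 libraries, the SD of log2 CPM was highest for Rps27l at 0.95, then Rpl38 at 0.86, Rps15a at 0.77, Rps29 and Rpl12 at 0.72 each. It was lowest for Rps2 at 0.31, then Rpl3 and Rpl6 at 0.32 and 0.33, Rpl10 at 0.34 and Rpl27a at 0.37.

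Libraries of 1 group also differed across the family. The log2 ratio of the first over the second library had a median over the 74 genes of −0.35 in brain, −0.17 in blood after tMCAO and 0.35 after sham surgery. In sham blood 72 of the 74 were higher in the first library.

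Short coding sequences and long ones did not have the same values. Among the 74 genes, the 45 with coding sequences under 500 nt had a median log2 change of −1.16 when brain was compared with tMCAO blood, 0.52 between the blood groups (tMCAO against sham) and −0.68 when brain was compared with sham blood. The 29 longer genes had medians of −0.75, −0.04 and −0.87. For tMCAO blood against sham blood, 42 of the 45 short genes were above 0, against 14 of the 29 longer ones. Spearman's rho of log2 change with coding length over the 74 genes was 0.68, −0.70 and −0.23 in the same order, a description of genes that share libraries and depth. Other genes averaging at least 100 CPM also had lower medians at short length for brain against tMCAO blood and higher ones between the blood groups: the 325 under 500 nt had medians of −0.64, 0.60 and −0.17, and the 1309 longer ones 0.22, −0.10 and 0.05. For brain against sham blood the short genes had the higher median among the ribosomal protein genes and the lower one among the others. The part of transcript length in these values was not tested.

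**Figure D5:**
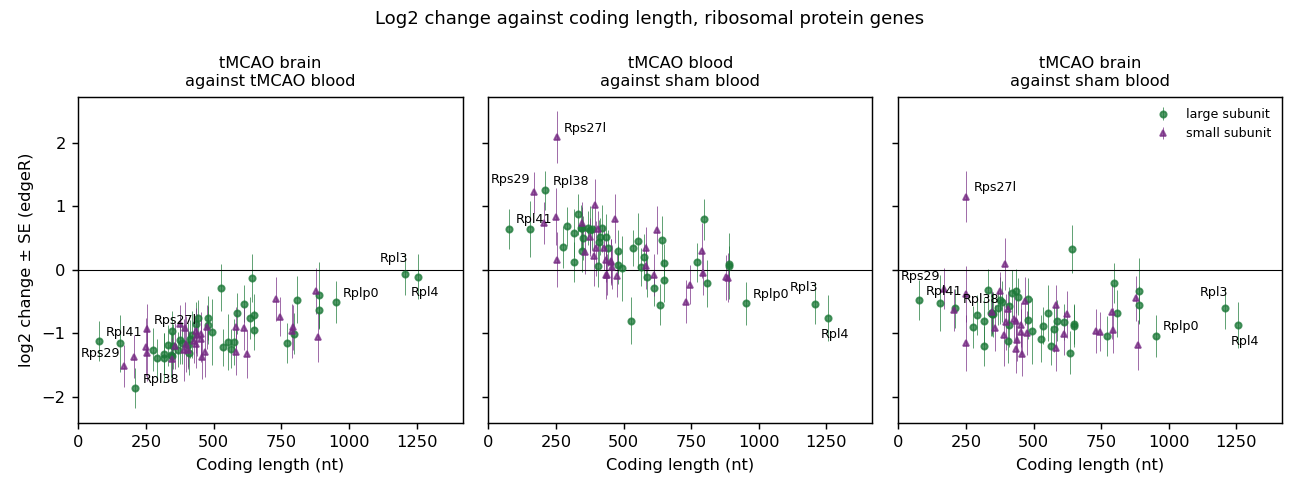
Each point is a ribosomal protein gene with a mean of at least 100 CPM, placed by coding length in nucleotides and by edgeR log2 change with its SE, with large-subunit genes as circles and small-subunit genes as triangles. In tMCAO blood against sham blood the 45 genes under 500 nt have a median of 0.52 and the 29 longer ones −0.04.

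Counts of some members are uncertain. Rpl13a, Rpl24 and Rps10 share at least 50% of their exon length with another gene on the same strand, and they had low counts for such genes: Rps10 had 0.544 and 0.858 CPM in brain, against 1.13 and 2.49 CPM in blood after tMCAO and 1.54 and 1.83 CPM after sham surgery. Rpl24 had between 0.726 and 2.39 CPM over the 6 libraries, and Rpl13a had between 9.92 and 46.1 CPM. Rpl19 overlaps another gene on its strand over 10.7% of its exon length, 11 members overlap a gene on the other strand only, and 74 overlap none. With the strand setting unknown, other-strand overlaps may matter too, as for Rpl35 (68.3% of exon length) and Rpl23a (55.4%). Rpl22l1 has 28.8% such overlap and shares 58.6% of its 75-base stretches, so its level and its ratio to Rpl22 are uncertain. For the median member, 47.9% of the 75-base stretches of its transcript also occur in another annotated gene, and for 14 members at least 80% do. How the authors' counting treated reads that match a member and its copies is not given in the sources used here, so levels of such members are uncertain.

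Of 5 cytosolic ribosome genes outside the symbol rule, 0 passed the edgeR test in any comparison. At an unadjusted p under 0.05 in edgeR, 2 were lower for brain against tMCAO blood (11.3% of all genes) and 1 was higher between the blood groups (16.4%). For brain against sham blood 0 differed, where 19.7% of all genes were higher and 10.6% lower. Rack1, a signalling scaffold on the small subunit, had 433 and 688 CPM in brain, against 1441 and 1494 CPM in blood after tMCAO and 1193 and 806 CPM after sham surgery. Fau, which encodes a ubiquitin-like protein fused to a small-subunit protein, had a log2 change of −0.59 ± 0.31 for brain against tMCAO blood (edgeR adjusted p = 0.257). For the mitochondrial ribosome 81 of 84 genes were tested. In brain against tMCAO blood 0 were higher and 3 lower, where 3.53% and 1.37% of all tested genes were, with a median log2 change of −0.62. The 3 were Mrpl33 (−2.05 ± 0.30), Mrps18c (−1.52 ± 0.28) and Mrpl18 (−1.20 ± 0.24), with edgeR adjusted p of 0.0269, 0.0410 and 0.0462. Mrpl33 also rose in tMCAO blood against sham blood (log2 1.42, edgeR adjusted p = 0.0425). In that comparison 1 was higher and 0 lower, where 4.33% and 3.15% of all tested genes were. Mrps26 and Mrps35 fell in brain against sham blood, where 2.62% of all tested genes were called lower.

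Of 42 translation factors, 0 were called for brain against tMCAO blood (median −0.31). There 5 were higher and 11 lower at an unadjusted p under 0.05 in edgeR, against 16.8% and 11.3% of all genes. For tMCAO blood against sham blood Gspt1, a translation termination factor, rose by a log2 of 1.46 and Eif5, an initiation factor, fell by 1.68 (edgeR adjusted p of 0.0412 and 0.0410). For brain against sham blood Pabpc1, the poly(A)-binding protein, fell by 1.71 (edgeR adjusted p = 0.0306). Of the 42, 1 was called higher and 1 lower between the blood groups, where 4.33% and 3.15% of all tested genes were. For brain against sham blood 0 were higher and 1 lower, against 8.01% and 2.62%. Of 50 ribosome biogenesis genes, 0 were called for brain against tMCAO blood (median −0.18) and 0 for brain against sham blood (median −0.35). At an unadjusted p under 0.05 in edgeR, 4 were higher and 6 lower in the first, against 16.8% and 11.3% of all genes. In the second, 0 were higher and 7 lower, against 19.7% and 10.6%. Between the blood groups, 4 were higher and 11 lower, against 16.4% and 13.2%. For tMCAO blood against sham blood Polr1a, the largest subunit of RNA polymerase I, rose by 1.83, and the nucleolar proteins Nop56 and Rrp1 fell by 1.86 and 1.25 (edgeR adjusted p of 0.0403, 0.0336 and 0.0458). These were the only calls there, 1 higher and 2 lower of 50, where 4.33% and 3.15% of all tested genes were called. Of 31 tested mTOR and MYC regulators, Mxd1, a MYC antagonist, had 173 and 175 CPM in brain, against 10.3 and 23.2 CPM in blood after tMCAO and 66.9 and 106 CPM after sham surgery; its log2 change was 3.38 in brain against blood of tMCAO mice and −2.36 between the blood groups (edgeR adjusted p of 0.0265 and 0.0403). Rragc and Rptor, which bring mTOR to the lysosome and form its first complex, rose in brain against sham blood by a log2 of 2.29 and 1.49 (edgeR adjusted p of 0.0213 and 0.0387). Of the 31, 1 was called higher and 0 lower for brain against tMCAO blood, where 3.53% and 1.37% of all tested genes were. Between the blood groups 1 was higher and 2 lower, against 4.33% and 3.15%. For brain against sham blood 2 were higher and 0 lower, against 8.01% and 2.62%.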

How the data were processed

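Messenger RNA of 6 libraries labelled as sorted Tregs was measured. Per the labels' protocols, 500 to 1000 cells were lysed for each library, cDNA came from a SMART-Seq ultralow input kit and Nextera XT, and sequencing was paired-end at 75 bp. The deposited values are whole-number counts per gene that the authors made with STAR, HTSeq 0.11.2 and the build GRCm38, per the submitters' processing notes. Annotation release, strand setting and the handling of multi-position reads are not given in the sources used here. Without molecular identifiers, reads do not stand for independent molecules, and intervals cover counting error only.

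Libraries were grouped by their titles. The edgeR 4.0.16 quasi-likelihood test (R 4.3.3) was run on 16657 genes that passed filterByExpr at a minimum count of 10. Scaling was by TMM, and 1 fit held all 6 libraries, with 3 residual degrees of freedom. P-values were adjusted by Benjamini-Hochberg over all tested genes in each comparison, with a threshold of 0.05. DESeq2 1.42.0 and limma-voom (limma 3.58.1) were alternatives, beside other scalings and filters, the 2 groups of a comparison fitted alone, the replicate block and leaving out each library. Coordinates, lengths, overlaps and shared 75-base stretches came from GENCODE M21 (GRCm38), and gene starts from RefSeq.

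The members, the neighbouring lists and the cell type markers were chosen with earlier results of these data known. Named in every comparison were fixed genes by role (among them Rplp0, Rpl5, Rpl11, Rps6 and the paralogs). In each comparison up to 5 members a direction were added (called, or else the largest changes with groups that do not overlap), then the 5 most and 5 least variable members and up to 4 called genes of each neighbouring list. A selection of these is given, and some are not reported here. The 2 libraries of every group differed beyond counting noise, with a chi-square over its degrees of freedom of 204 in the brain pair, 219 in the tMCAO blood pair and 25.3 in the sham pair.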

Additional observations from a re-analysis of the deposited data

How the results depend on the processing

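The median log2 change of the members kept its sign under all alternatives that were run, but its difference from the median of all genes did not. Raw library totals moved the median of all genes for brain against tMCAO blood to −0.16, against 0.06 with TMM, and the members differed from it by −1.13 and −1.12. Between the blood groups, without sham blood replicate 2, the members differed from the median of all genes by −0.04, and by 0.18 with all libraries. The counts of members called did change, and so did the share of all tested genes called in that direction, given in brackets. For brain against tMCAO blood, the 1 lower call (1.37%) became 2 with DESeq2 size factors (1.38%) and 2 with raw library totals (2.36%). It became 3 with red cell genes left out before scaling (1.53%) and 25 with no filter on low counts (3.81%). With at least 5 CPM in 2 libraries it became 10 (3.9%), and with the DESeq2 Wald test 57 (8.18%). With limma-voom it became 20 (2.7%), and with only the 2 groups compared 0 (0.025%). For tMCAO blood against sham blood, the 1 higher call (4.33%) became 3 with no filter (6.69%) and 3 with 5 CPM (10.1%). It became 8 with DESeq2 (12.4%) and 3 with limma-voom (3.15%). The count of lower calls became 1 with DESeq2 (10.4%). For brain against sham blood, the 0 higher calls (8.01%) became 1 with raw totals (7.33%), 2 with no filter (10.3%) and 1 with 5 CPM (12.6%). They became 2 with DESeq2 (15.6%) and 2 with only the 2 groups (12.2%). The 0 lower calls (2.62%) became 5 with no filter (3.99%), 3 with 5 CPM (4.61%) and 35 with DESeq2 (8.43%). They became 9 with limma-voom (3.63%) and 4 with only the 2 groups (5.56%). Without replicate 1 of tMCAO brain and of tMCAO blood, the libraries with the least T cell RNA (chosen after seeing the data), the lower calls were 37 for brain against tMCAO blood and 20 for brain against sham blood, and the higher calls were 10 between the blood groups and 2 for brain against sham blood. That setting leaves 1 brain and 1 tMCAO blood library, so its spread comes from the sham pair alone, the closest pair, and the calls over all genes grew with it, to 8% and 9.68% lower and 11.2% and 17.7% higher in the same order; these counts say nothing about stability. Leaving out 1 library leaves a group with 1 sample, which is assumed to vary like the other groups. Counts of members called in those fits are therefore not listed here, and only those for brain against sham blood are described above. For Rpl38 and Rps27l it is stated above whether the call held. Shares of counts with red cell genes left out of the totals were 9.74% in tMCAO blood replicate 2, 8.80% and 6.98% in sham blood. The cause of these differences was not tested.

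The labels give groups the same replicate numbers. With the replicate number as a block, the lower calls for brain against tMCAO blood were 1, where 1.36% of all genes were called. The higher calls between the blood groups were 1 (4.61% of all genes). For brain against sham blood they were 1 (8.5%), Rps4l (edgeR adjusted p = 0.0200). Deviations of same-numbered libraries from their group means correlated at 0.35 for brain with tMCAO blood, −0.10 for the blood groups and −0.05 for brain with sham blood over all genes. Over the members the values were 0.37, −0.10 and −0.47 in the same order. Each rests on 1 difference within each group, so they cannot decide whether the numbers mark pairs. The main fit did not take them as pairs.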
